A study of Drosophila melanogaster with 2 samples.

Results

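The sarcomere genes described here are 10 protein-coding genes of Drosophila melanogaster, namely sls, Zasp66, Actn, Mhc, Mlc2, bt, Tm1, Tm2, wupA and up, out of 13945 on the main chromosome arms. They were chosen by name, and every peak whose summit lay in the gene body or within 2 kb of it was taken as a peak of that gene. The gene body with these flanks is called the locus. The peaks come from chromatin immunoprecipitation and sequencing (ChIP-seq) of the transcription factor lame duck, encoded by lmd. Both samples, which the labels call biological replicates 1 and 2, form 1 group: whole embryos aged 0 to 18 h of a transgenic strain that makes lame duck fused to eGFP, a green fluorescent protein. An anti-GFP antibody was used for the precipitation, so the assay reports on the tagged protein. All tissues and ages were pooled, and with 1 group no condition could be compared with another. Binding in a few cells and weak binding in many cells cannot be told apart in whole embryos, and peak lists give no marker with which to check the tissue.

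Sarcomeres are the repeating contractile units of striated muscle. Thin filaments of actin, with tropomyosin and troponin along them, are anchored in Z-discs and slide past thick filaments of myosin, while giant titin-like proteins link the filaments. In the fly embryo, somatic muscles arise when fusion-competent myoblasts fuse with founder cells. Lame duck, a zinc finger protein of the Gli superfamily, is needed by the fusion-competent myoblasts, and Mef2, a MADS-box factor, switches on many genes of the contractile apparatus during muscle differentiation.

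The strongest peak of each of the 5 genes with a peak in the conservative set is shown here, because these 5 stretches are the places in the loci where the tagged protein was listed most strongly. The sequences are the plus strand of the Release 6 (dm6) genome, read from the RefSeq assembly. The sls stretch is the whole peak at chr3L:2115767-2116011, the Zasp66 stretch the whole peak at chr3L:8629028-8629216 and the Mlc2 stretch the whole peak at chr3R:30170736-30170922. The Actn stretch is the first 60 bases of its peak, chrX:2041401-2041460, up to the edge of an annotated exon, and the Tm1 stretch is 300 bases round the summit, chr3R:15280898-15281197. Capitals mark matches on either strand to 6 fixed motifs: the Mef2 core (TA, 4 letters A or T, then TA), a Twist-type E-box (CACATG or CATATG), a Gli-type core (CCACCCA), the DREF word (TATCGATA), the GAGA word (GAGAGA) and a Cf2-type word (GTATATA). Adjoining capitals can be overlapping matches.
sls: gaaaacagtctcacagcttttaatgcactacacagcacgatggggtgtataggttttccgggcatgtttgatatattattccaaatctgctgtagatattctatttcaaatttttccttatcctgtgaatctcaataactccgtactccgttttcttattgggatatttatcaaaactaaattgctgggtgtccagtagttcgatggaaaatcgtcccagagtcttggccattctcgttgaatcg
Zasp66: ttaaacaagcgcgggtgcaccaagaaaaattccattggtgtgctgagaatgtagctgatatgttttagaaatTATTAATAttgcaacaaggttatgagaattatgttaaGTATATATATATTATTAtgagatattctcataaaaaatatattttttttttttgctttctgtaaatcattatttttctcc
Mlc2: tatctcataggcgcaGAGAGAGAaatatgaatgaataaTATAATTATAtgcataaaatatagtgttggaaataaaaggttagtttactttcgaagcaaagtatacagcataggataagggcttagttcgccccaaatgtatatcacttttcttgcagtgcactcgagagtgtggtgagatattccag
Actn: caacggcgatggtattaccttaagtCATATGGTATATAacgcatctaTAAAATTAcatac
Tm1: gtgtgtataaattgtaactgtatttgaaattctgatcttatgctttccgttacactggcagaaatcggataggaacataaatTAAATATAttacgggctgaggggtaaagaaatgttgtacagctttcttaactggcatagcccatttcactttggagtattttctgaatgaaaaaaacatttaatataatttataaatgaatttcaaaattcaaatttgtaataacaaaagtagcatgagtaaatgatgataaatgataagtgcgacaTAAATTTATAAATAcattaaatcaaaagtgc

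The sls stretch, of the strongest peak, held no match to any of the 6 motifs. The Zasp66 stretch held 4 Mef2 cores, of which TATTAATA was centred 1 bp from the summit, and a Cf2-type word that overlaps another of them. In the Mlc2 stretch, 2 overlapping Mef2 cores lay 42 and 44 bp from the summit, and 2 overlapping GAGA words lay 66 and 68 bp from it. In the 60 bases of the Actn stretch, the Mef2 core TAAAATTA was centred 3 bp from the summit, the Cf2-type word 20 bp and the E-box CATATG 26 bp from it. The nearest Mef2 core of the Tm1 stretch was 63 bp from the summit.

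The deposited lists comprise 2 joint sets, called on both replicates together, and a set for each replicate alone. On the main arms, the conservative joint set held 4998 peaks, a wider joint set 6361, the replicate 1 set 3929 and the replicate 2 set 5544, and each has a ranked list behind it of 89892 to 120713 peaks with no threshold. All thresholded peaks had scores of 830 to 1000, where 830 corresponds to an irreproducible discovery rate (IDR, a measure of how repeatably a peak ranks between 2 lists) of about 0.01. The signal of a peak is the authors' own value, with no unit stated, and is used below only within 1 list. Conservative signals ran from 2.02 to 4246 with a median of 160.

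Of the 10 sarcomere genes, 5 had a conservative summit in their locus, against 33.5% of all protein-coding genes. The 5 were sls, Zasp66, Actn, Mlc2 and Tm1, and the 5 without were Mhc, bt, Tm2, wupA and up. The wider joint set gave the same count of 5, against 40.1% of all genes. The replicate sets gave 4 in replicate 1, against 27.2% of all genes, and 5 in replicate 2, against 40.1%. Replicate 1 lacked a peak at Actn.

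The sarcomere loci are long, and long loci hold summits more often. Their median locus length was 20466.5 bp, against 6166 bp over all protein-coding genes. Among genes whose locus length was within 20% of the member's, the share with a conservative summit was 77.3% for sls, 67.4% for Tm1, 56.3% for Actn, 51.7% for Zasp66 and 32.8% for Mlc2. For the members without a summit it was 69.9% for bt, 63.6% for Mhc, 50.4% for wupA, 45.2% for up and 38.6% for Tm2. Beside the 5 observed, these 10 shares add up to 5.53 genes. Per kb of locus, the members held 0.0283 conservative summits (8 in all), against 0.0492 over all protein-coding loci. The value over all loci counts a summit once for each locus that holds it. Per kb of chromosome, the arms other than chromosome 4 held 0.0342 to 0.0449, and chromosome 4 held 0.00148. The members' value per kb and the sum of shares both include bt, whose locus of 56075 bp is on chromosome 4. There, 3.75% of genes had a conservative summit in their locus, so neither comparison is on equal terms for bt. The ranked joint list, the list with no threshold behind the conservative set, held no summit at Tm2 or up. Their shares are in the sum too, so it is not on equal terms for them either.

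**Figure D1:**
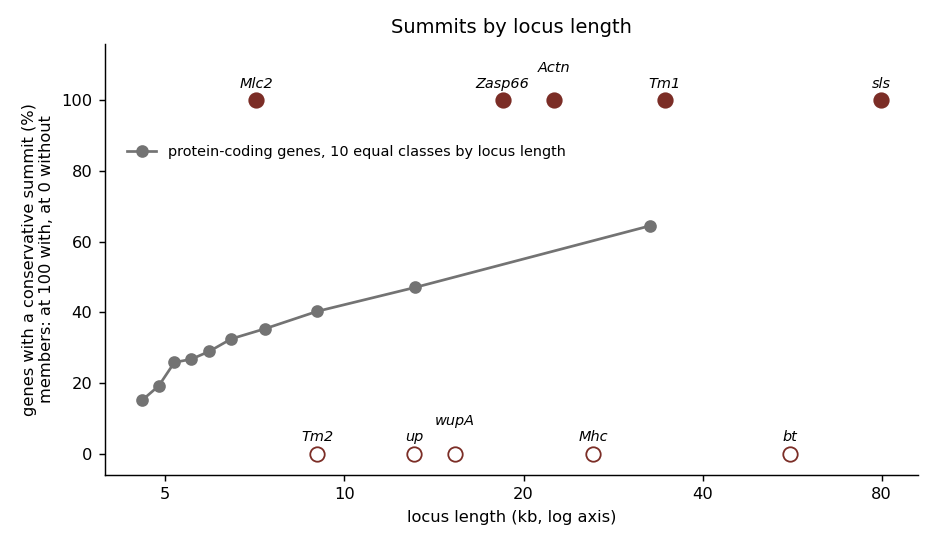
Locus length (gene body with 2 kb on each side, in kb, log axis) of the 10 sarcomere genes, placed at 100 where they hold a conservative summit (filled) and at 0 where they do not (open), with grey points for the percentage of protein-coding genes with a summit in 10 classes of equal size by locus length. The grey share climbs from 15.1% in the class of shortest loci to 64.5% in that of the longest, and the members with and without a summit both span short and long loci.

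Among the Z-disc genes, sls had the highest signal of the list. It encodes Sallimus, a titin-like protein that links the Z-disc to the thick filament, and lies on the minus strand of 3L at 2039681 to 2115611. Its main peak had a joint signal of 531, rank 433 of 4998, which puts it in the top 8.66% of the conservative set. Replicate 1 gave this peak a signal of 218 (rank 458 of 3929) and replicate 2 a signal of 305 (rank 479 of 5544). The replicate summits lay 31 and 1 bp from the joint summit, so both samples placed the peak at the same site. The summit was 270 bp upstream of the only annotated start site of sls, outside any protein-coding gene.

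A second conservative peak of sls, at 2117000 to 2117363, had a signal of 77.7 and rank 4554, near the bottom of the set. It lay 1571 bp upstream of sls and 284 bp beyond the 3′ end of zormin, a neighbouring gene for another titin-like Z-disc protein. Neither replicate set nor the wider joint set held it. In the ranked lists behind the replicate sets its signals were 44.9 in replicate 1, at a −log10 IDR of 0.0823, and 35.5 in replicate 2, at a −log10 IDR of 1.59, where 2 is the authors' threshold. It was thus 1 of 317 conservative peaks that are not in the wider set.

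Zasp66, a PDZ-domain protein of the Z-disc, had 2 conservative peaks inside its body on the plus strand of 3L at 8624371 to 8638813. The stronger lay in an intron 1140 bp from the nearest of its 3 start sites, with a joint signal of 305 and rank 1084. Replicate 1 gave it a signal of 125 (rank 1183) and replicate 2 a signal of 181 (rank 1088), with summits 56 and 6 bp from the joint one. The weaker peak, at 8634416 to 8634779, had a joint signal of 89.7 and rank 4153, and its summit fell in coding sequence of Zasp66. Its nearest start site was 529 bp away and belongs to Cdc6, a factor that licenses replication origins, while the nearest start site of Zasp66 was 4355 bp away. This weaker peak was in the replicate 2 set (signal 43.1, rank 5122) and not in the replicate 1 set, whose ranked list had it at a signal of 49.3 and a −log10 IDR of 0.839.

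Actn encodes α-actinin, which crosslinks actin filaments at the Z-disc, on the minus strand of X at 2023822 to 2042311. Its conservative peak, at 2041401 to 2041541, had a joint signal of 227 and rank 1614. The summit lay in an intron of Actn that is also an intron of usp, the gene of the nuclear receptor ultraspiracle. The nearest start site, 143 bp away, was of usp, and CG4313 also had one within 500 bp, while the nearest of Actn was 856 bp away. Replicate 2 gave the peak a signal of 149 (rank 1430), 4 bp from the joint summit. The replicate 1 set did not hold it: the ranked list of replicate 1 had a peak 69 bp away with a signal of 74.0 and rank 2413 but a −log10 IDR of 0.0768. Replicate 2 alone held 2 further peaks in the locus, of signals 46.9 and 5.69. The first of these was 127 bp upstream of a start site that Actn and usp share, and replicate 1 ranked a peak of signal 20.8 there. The second overlapped the main peak and lay 216 bp from the start site of CG4313.

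Of the thick filament genes, Mlc2 had 1 conservative peak, and it lay outside the gene. Mlc2 encodes the regulatory light chain of muscle myosin on the minus strand of 3R at 30171438 to 30174551. The joint signal was 231 at rank 1577, replicate 1 gave 107 at rank 1475 and replicate 2 gave 128 at rank 1770. The replicate summits were 23 and 0 bp from the joint one, so the replicates again placed 1 site. That site was 616 bp past the 3′ end of Mlc2 and 3729 bp from its start site. It fell in an intron of Rsod, a gene named for its relation to superoxide dismutase, 385 bp from the Rsod start site.

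Mhc, the single muscle myosin heavy chain gene of the fly, had no summit in any thresholded set, although its locus on 2L, at 16766566 to 16788766 on the plus strand, held 34 ranked summits in replicate 1 and 36 in replicate 2. Its best joint ranked peak, at 16770464 to 16770827, had a signal of 64.1 and an IDR of 0.0387, in coding sequence 2035 bp from the nearest start site. Replicate 1 gave that peak a signal of 26.1 and replicate 2 a signal of 37.1. The strongest ranked peak of replicate 1 lay elsewhere, with a signal of 32.0 and a summit 5937 bp from the nearest start site. The nearest conservative summit was 27793 bp from the gene, at mdy.

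The other thick filament gene, bt, encodes projectin, a titin-like kinase that lies along the thick filament and in the connecting filament of flight muscle. It is on the plus strand of chromosome 4 at 724400 to 776474. Its 52075 bp held 4 ranked summits of replicate 1 and 1 of replicate 2, the outermost 34.7 and 37.6 kb from its 5′ end. The best joint ranked peak, at 761605 to 761968, had a signal of 42.6 and an IDR of 0.154, with 29.5 in replicate 1 and 19.2 in replicate 2. The nearest conservative summit was 31068 bp from the gene, at Sox102F. Chromosome 4 as a whole held few peaks: 21 ranked summits in replicate 1 and 28 in replicate 2, or 0.0156 and 0.0208 per kb. The other arms held 0.777 to 0.909 per kb in replicate 1 and 0.649 to 0.722 in replicate 2. The conservative set had 2 peaks on chromosome 4, and 3.75% of its 80 genes had a summit in their locus. Most genes of the chromosome thus had no peak, as bt had none, and why these lists hold so little of it is not given in the sources used here.

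Among the thin filament genes, Tm1 held 2 conservative peaks, both in an intron. Tm1 and its neighbour Tm2 encode tropomyosins, which lie along actin and, with troponin, control access of myosin, and Tm1 also makes isoforms outside muscle. Tm1 lies on the plus strand of 3R at 15278220 to 15308779 with 8 start sites. The peaks had joint signals of 159 (rank 2527) and 137 (rank 2949), and their summits were 324 and 124 bp from a start site 3151 bp into the gene. They overlapped by 164 bp with summits 200 bp apart, so they may not be separate sites. Replicate 1 had 1 peak there, of signal 107 and rank 1472, 36 and 164 bp from the joint summits. Replicate 2 had 2, of signals 60.7 (rank 3965) and 56.8 (rank 4212).

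A further Tm1 site passed the authors' IDR level in part of the ranked lists without entering a set. In the ranked list of replicate 2 it spans 15292316 to 15292659, with a signal of 89.7, rank 2721 of 89892 and a −log10 IDR of 4.55, which made it the strongest Tm1 peak of that sample. The ranked wider joint list had it at 123 with a −log10 IDR of 3.76, in an intron about 1541 bp from a Tm1 start site. It was in neither the ranked list of replicate 1 nor the ranked joint list. The site lies within a stretch of 27.7 kb, described below, where replicate 1 ranked no summit at all. Over all genes, 120 peaks of replicate 2 had a score at or above that of its set and were not in the set, and the reason is not given in the sources used here.

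Tm2 lies next to Tm1, at 15310193 to 15315197 on the plus strand of 3R, and had no thresholded summit. Its locus had no ranked summit in replicate 1 or in the ranked joint list, and 6 in replicate 2. The best of these had a signal of 29.6 and an IDR of 0.128, in coding sequence 835 bp from a start site. The ranked list of replicate 1 held no summit at all between 15290071 and 15317734, a stretch of 27.7 kb that takes in the distal part of Tm1 and the whole of Tm2. Only 0.165% of the gaps between neighbouring ranked summits of replicate 1 were as long, and the median gap was 719 bp. Replicate 2 had no gap above 3.95 kb there. For this pair of genes the replicates therefore differ in what was listed, and the cause was not tested.

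Among the members, the troponin genes wupA and up had no thresholded summit either. The gene wupA, for troponin I, the inhibitory subunit, lies on the minus strand of X at 18105568 to 18116922. Its best joint ranked peak had a signal of 50.8 and an IDR of 0.0587 in the 5′ UTR, 961 bp from a start site, with 25.8 in replicate 1 and 27.1 in replicate 2. The gene up, for troponin T, the tropomyosin-binding subunit, lies on the minus strand of X at 13593474 to 13602578. It had no summit in the ranked joint list. In the ranked wider joint list its best peak had a signal of 29.5 and an IDR of 0.756, 20 bp from a start site. Replicate 1 ranked 3 summits in the up locus, the best at 22.8, and none from 13595494 to 13611071, a stretch of 15.6 kb that holds all 6 start sites of the gene. Replicate 2 ranked 12 summits, the best at 23.6. The nearest conservative summits were 10668 bp from wupA, at RhoGAP16F, 14250 bp from up, at Tango2, and 5265 bp from Tm2, at CG44040.

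**Figure D2:**
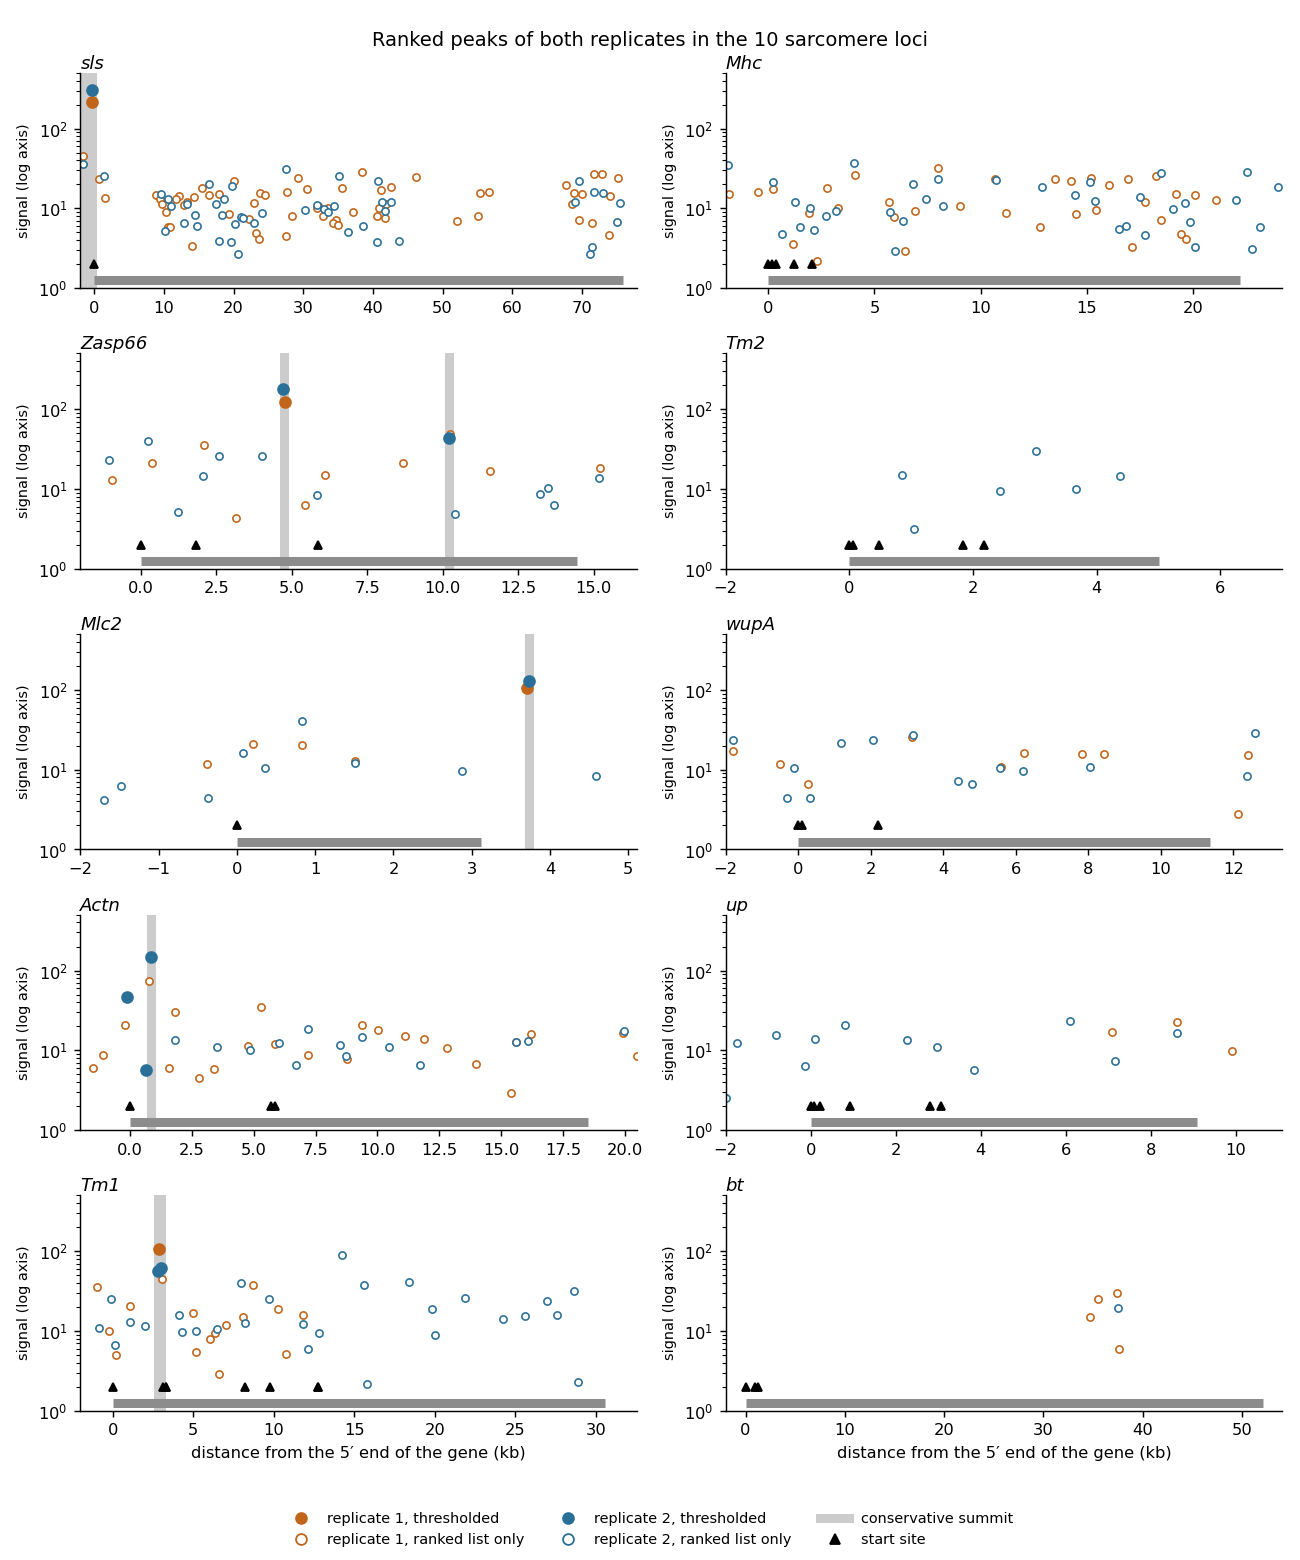
Ranked peaks of replicate 1 (orange) and replicate 2 (blue) in each locus, by distance of the summit from the 5′ end of the gene (kb) and signal (authors' value, log axis, not comparable between replicates), filled where in the replicate's thresholded set, with grey bands at conservative summits, triangles at start sites and a grey bar for the gene. Filled points appear at sls, Zasp66, Mlc2, Actn and Tm1, while Mhc, Tm2, wupA, up and bt have open points only, the highest at 37.1.

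Set against the whole conservative list, the 8 peaks of the sarcomere loci had a median signal of 193, against 160 over all 4998 peaks. Of the 8, 4 were above the median, 2 above the upper quartile of 273 and 2 below the lower quartile of 104. By place, 3 were at a promoter of the member itself (within 500 bp of a start site), 2 at the promoter of another gene only, and 3 at no promoter. The members with a summit at their own promoter were thus sls and Tm1, 2 of 10, against 17.2% of all protein-coding genes.

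Both replicate sets held 5 of the 8 peaks, against 63.7% of all conservative peaks. The replicate 1 set held 5, against 71.4% of all, and the replicate 2 set 7, against 83.0%. The 1 Tm1 peak of replicate 1 was counted for both joint Tm1 peaks. When summits had to lie within 100 bp, 4 of the 8 were in both sets. The 3 not in both were the second sls peak, the coding-sequence peak of Zasp66 and the Actn peak. In the ranked lists, which hold 112073 and 89892 peaks with no threshold, all 8 had an overlapping peak in each replicate. The share over all conservative peaks was not computed for these lists, so nothing particular to the 8 is read from this.

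Peak width divides the 8 peaks evenly. A single width, 364 bp, was shared by 61.3% of the conservative peaks, whose median signal was 114, against 325 for the rest. Of those standard-width peaks 44.0% were in both replicate sets, against 94.9% of the others. The sarcomere loci held 4 standard-width peaks (the second sls peak, the coding-sequence peak of Zasp66 and both Tm1 peaks) and 4 narrower ones, at sls, Zasp66, Mlc2 and Actn. Without standard-width peaks, a choice made after seeing the data, 4 members kept a summit, against 18.1% of all genes, and Tm1 dropped out. The share of all genes is not matched for locus length, and the sarcomere loci are long.

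**Figure D3:**
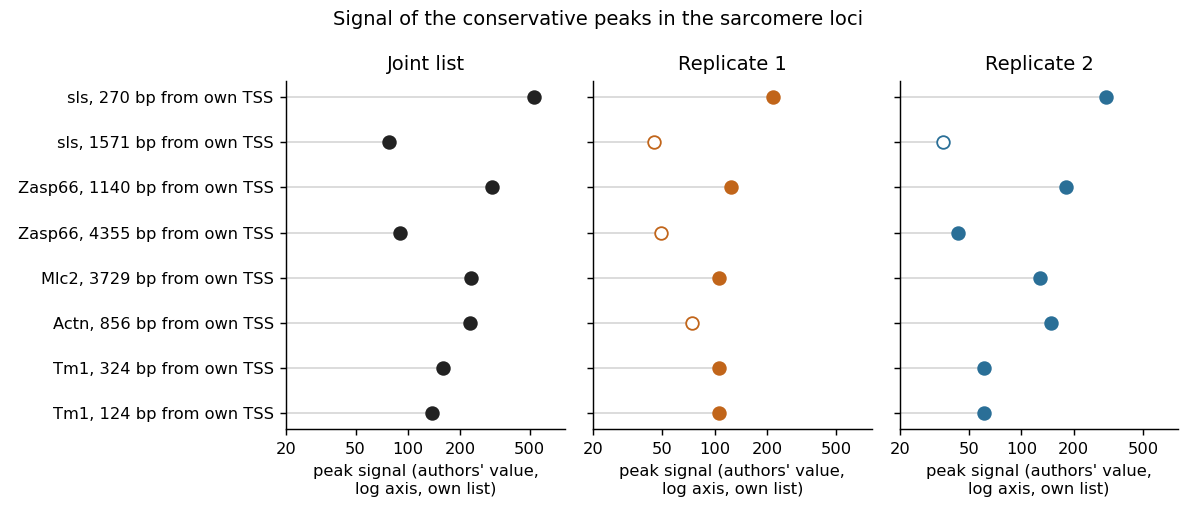
Signal (authors' value, log axis, comparable within a panel only) of the 8 conservative peaks of the sarcomere loci in the joint list and in each replicate, with filled points where the replicate's thresholded set holds an overlapping peak and open points where only its ranked list does. The 3 open points of replicate 1 are the second sls peak, the second Zasp66 peak and the Actn peak, replicate 2 has 1 open point, and both Tm1 rows show the strongest overlapping peak of a replicate, which is the same for both.

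The ranked lists place every member on 1 scale, its best ranked peak among those of all genes. Nearly every gene has such a peak: 89.2% of all protein-coding genes in replicate 1 and 91.8% in replicate 2, with a median best signal of 31.1 in replicate 1 and 36.3 in replicate 2. For sls, 5.34% of all genes had a stronger best peak in replicate 1 and 6.23% in replicate 2. The shares were 11.8% and 12.6% for Zasp66, and 14.0% and 18.7% for Mlc2. They were 19.8% and 15.9% for Actn, and 14.0% and 25.9% for Tm1, where the replicate 2 value is that of the site outside the set. The members without a summit stood near or below the middle. For Mhc 42.7% of genes had a stronger best peak in replicate 1 and 45.3% in replicate 2, for wupA 58.7% and 54.2%, for up 68.2% and 66.0%, and for bt 48.2% and 77.9%. The wupA value of replicate 2 is that of a peak of signal 28.9 outside the gene. It lay 1247 bp past the 3′ end of wupA, in coding sequence of CG7135 and 668 bp from a CG7135 start site. For Tm2 the share was 53.1% in replicate 2. The 5 members with a summit and those without do not overlap on this scale, where Tm2 has no value in replicate 1. This order was largely fixed in advance, since the thresholded sets were drawn from ranked lists, so it is a description only.

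Among genes of like locus length, the order changes for the long loci. For sls, 12.5% of the like-length genes had a stronger best peak in replicate 1 and 15.6% in replicate 2. For Mlc2, whose locus is the shortest, the shares were 13.0% and 18.6%. For Mhc they were 77.3% and 71.7%, for up 80.6% and 82.6%, and for bt 90.4% and 95.0%. So bt was among the lowest of the genes of its length in both samples. Those genes were taken from all arms, while chromosome 4 held only 0.0156 ranked summits per kb in replicate 1 and 0.0208 in replicate 2. The place of bt cannot be told apart from that of its chromosome.

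**Figure D4:**
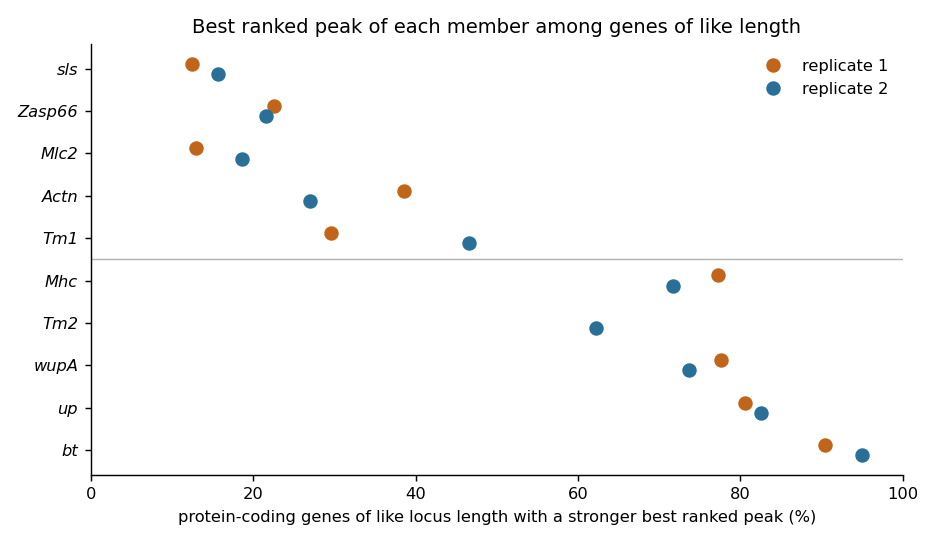
Percentage of protein-coding genes of like locus length (within 20%) whose best ranked peak had a higher signal than that of the member, in replicate 1 (orange) and replicate 2 (blue), with the members that hold a conservative summit above the line. The 5 above run from 12.5% to 46.5% and those below from 62.2% to 95.0%, an order largely fixed in advance because the thresholded sets were drawn from ranked lists. Tm2 has no point for replicate 1, which listed no summit in its locus, and bt lies on chromosome 4, where few peaks were listed.

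The ranked peaks of the replicates overlapped in part. In the Mhc locus 28 of the 34 ranked summits of replicate 1 had a peak of replicate 2 over them, and in the sls locus 41 of 64, against 60.8% over the whole list. The counts for the other members were 15 of 24 at Actn, 12 of 17 at Tm1, 9 of 10 at wupA, 7 of 11 at Zasp66, 5 of 5 at Mlc2, 2 of 4 at bt and 2 of 3 at up. Overlap is likelier where peaks are dense, and the density differed: replicate 2 ranked 1.37 summits per kb at Mhc, 1.41 at Mlc2 and 0.912 at wupA, against 0.671 over all arms. Nothing particular to these loci is read from the overlaps.

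Within 100 bp of the summit, 6 of the 8 windows held a Mef2 core, against 40.3% of all conservative windows. The 2 windows without one were the main sls peak and the coding-sequence peak of Zasp66. A Cf2-type word, the recognition word of a zinc finger factor that acts with Mef2 at muscle genes in the fly, was in 3 of the 8, at Zasp66, Actn and Tm1, against 7.14% of all windows. The Gli-type core was in 1 (the coding-sequence peak of Zasp66), against 2.26%. The Twist-type E-box was in 1 (Actn), against 14.3%, the GAGA word in 1 (Mlc2), against 10.1%, and the DREF word in none, against 2.36%. The Mef2 core and the Cf2-type word are both rich in A and T and can overlap, so these counts are not of separate events. The Tm1 windows, with summits 200 bp apart, come from overlapping peaks that may not be separate sites. The GC content of the windows was 26.9% to 38.3% except for the coding-sequence peak of Zasp66 at 59.7%, against a median of 34.8% over all windows. A match shows letters only, not that a factor was bound.

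The members without a summit were not short of Mef2 cores. The up locus held 5.49 matches per kb (72 in all), and 0.624% of all protein-coding loci had more per kb. Tm2 held 4.33 per kb, exceeded by 1.95% of loci, and wupA 3.13, exceeded by 7.29%. The median over all loci was 1.51. Overlapping matches were each counted, in the members and in all other loci. At loci within 1 percentage point of the same GC content the medians were 2.89 for up, 2.12 for Tm2 and 1.90 for wupA, and 5.86%, 2.34% and 8.39% of those loci had more. Among the members with a summit, Actn held 2.13 per kb against a like-GC median of 1.16, Tm1 2.05 against 1.98, Zasp66 2.01 against 1.62, Mlc2 1.83 against 1.40 and sls 1.29 against 1.53. Of the rest, bt held 2.60 against 2.61 and Mhc 1.79 against 1.46. The 3 densest loci of the 10 were therefore loci with no thresholded lame duck peak. For Tm2 and up, the ranked joint list, which has no threshold, held no summit either, while it held 21 at wupA. Replicate 1 ranked none over 27.7 kb that takes in Tm2, and none over 15.6 kb that holds all start sites of up. Absence of binding at Tm2 and up can therefore not be read from the lists.

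**Figure D5:**
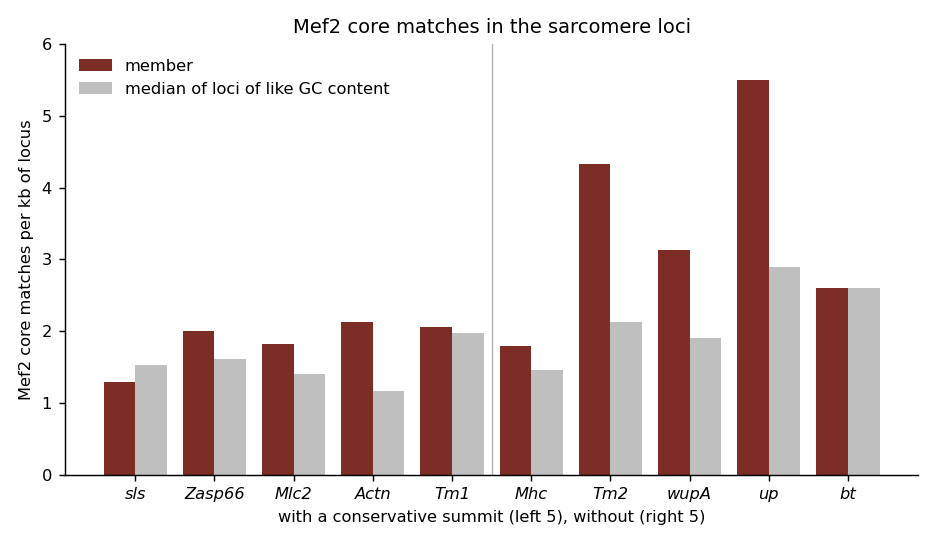
Mef2 core matches (TA, 4 letters A or T, TA) per kb of locus for each member (dark) and the median of protein-coding loci within 1 percentage point of its GC content (grey), with the members that hold a conservative summit on the left. The bars for Tm2, wupA and up, on the right, reach 4.33, 3.13 and 5.49 per kb, while the left 5 members lie between 1.29 and 2.13.

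A fixed list of 26 other sarcomere genes gives the wider pathway. Of these, 10 had a conservative summit (33.5% of all protein-coding genes did), 13 one in the wider joint set (40.1%), 9 in replicate 1 (27.2%) and 10 in replicate 2 (40.1%), with the share of all genes in brackets each time. The highest signal, at zormin, was that of the main sls peak, whose summit lies 1585 bp beyond the 3′ end of zormin, so the same peak counts for both genes. Next was tmod, for tropomodulin, which caps the pointed end of thin filaments, with 5 summits and a best signal of 484 in an intron 1432 bp from its start site (204 in replicate 1 and 273 in replicate 2). Obsc, for the M-line protein obscurin, followed with 221, 199 bp from the start site of CG3860, then Zasp52 of the Z-disc with 214 and Lasp, an actin-binding protein, with 206, both in introns. The 16 without a conservative summit included the essential light chain gene Mlc1 and 3 of the 4 listed actin genes (Act57B, Act79B and Act88F). They also included 4 of the 5 listed troponin C genes, Prm, for paramyosin, and Zasp67, of the same family as Zasp66. Mlc1 had 1 summit in the wider joint set and 1 in the replicate 1 set, while Zasp67 had none in any of the 4 sets. Act87E was the actin gene with summits, 3 in all, and TpnC47D the troponin C gene with one.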

How the data were processed

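Only the deposited peak lists were used, 1 thresholded and 1 ranked list for each replicate and for each of 2 joint calls, in coordinates of dm6, per the labels. The score, the summit offset and the signal (enrichment) of each peak are the authors' deposited values, as is the −log10 of the global IDR in the ranked lists, capped at 5. The aligner is not given in the sources used here, nor is the peak caller. Chromatin was sonicated to 200 to 800 bp, per the labels. The control libraries were not analysed here, the 8 further columns of each of the 4 ranked lists (16 of them values in the joint lists that the files map to no sample) were not used, and read depth is unknown.

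Peaks on the 6 main arms were placed by summit, with Python 3.11.15, pandas 2.3.3 and numpy 2.4.6, on Release 6 and annotation release 115. Promoters reached 500 bp from a protein-coding start site, peaks of different lists matched when they shared 1 bp or more, and like length meant within 20%. Placement was tested on simulated peaks. No test was made: there is 1 group, and counts over peaks or genes are descriptions. The members, the 26 other sarcomere genes (1 matched through a RefSeq synonym) and the motifs were chosen with earlier results of these data known. The text names the 10 members with every conservative summit, or the best ranked peak where there was none, the gene of the nearest start site, and up to 5 other sarcomere genes of highest signal. Further genes of that list were named after their values were seen.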

Additional observations from a re-analysis of the deposited data

How the results depend on the processing

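The lists and distances decide how many peaks count, and read depth, which is unknown, limits the weak ones. Of 76 alternatives over 12 counts, 55 stayed within 1.5 times the count reported. The shares of all genes given here are not matched for length, and the member loci are long, so no excess is read from them. The 5 members with a summit became 3 without flanks (Zasp66, Actn and Tm1), against 12.5% of all genes. At an IDR of 0.05 there were 6, Mhc among them, against 41.2% of all genes. The 8 summits became 5 at an IDR of 0.001, 4 among peaks at or above the median signal, 5 without flanks, 4 without standard-width peaks and 4 to 9 with 1 replicate left out. The 2 members with a summit at their own promoter became 1 among peaks at or above the median signal, with a promoter of 250 bp, and without standard-width peaks. The 2 summits at another gene's promoter only became 1 at 250 bp and 1 to 3 with 1 replicate left out. The 5 peaks in both replicate sets became 8 in the ranked lists, which have no threshold, 4 with summits within 100 bp and 3 without standard-width peaks. The 10 of 26 other sarcomere genes became 6 at an IDR of 0.001 (24.1% of all genes), 6 at or above the median signal (22.7%), 4 without flanks (12.5%) and 4 without standard-width peaks (18.1%). Windows of 50 bp left 0 Gli-type and 0 GAGA matches, and whole peaks gave 2 Twist-type and 2 GAGA matches. Leaving out standard-width peaks and merging overlapping peaks were chosen after seeing the data. The causes were not tested. No paired analysis was possible because both samples belong to 1 group.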
